A study of Macaca mulatta with 10 samples.

Results

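Ventral Thalamus was compared with the other 4 sampled nuclei of the dorsal thalamus in untreated adult rhesus monkeys (Macaca mulatta). The arrays were chosen by their labels: 2 of the 10 arrays are labelled Ventral Thalamus, as replicates 1 and 2. The other 8 arrays are 2 each of Anterior Thalamus, Centre Median, Medial Thalamus and Pulvinar, and the mean of these 4 nuclei was the level compared with. Every array carried biotin-labelled total RNA from tissue micro-punches on a short-oligonucleotide array designed for human transcripts, and the study asked which genes mark each nucleus. No treatment or genotype distinguishes the groups, which differ by nucleus alone in the labels. The labels name neither the ventral subnuclei that were punched nor the sex, the exact age or the number of the animals, and they do not say whether animals were pooled. All p-values therefore measure the spread between these arrays, which may be partly technical.

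The ventral nuclei are the sensorimotor relay of the thalamus. Their posterior part passes touch and body position signals from the spinal cord and brainstem to somatosensory cortex, and their lateral and anterior parts pass cerebellar and basal ganglia signals to motor cortex. Relay neurons of this kind are large, fire at high rates, carry thick myelinated axons and often contain parvalbumin, whereas calbindin and calretinin are more typical of neurons with diffuse cortical projections and of midline and association nuclei.

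A level below is log2(intensity + 1), and a difference is the level in Ventral Thalamus minus the mean level of the other 4 nuclei. Differences were taken within each replicate number and averaged, which is what a linear model in limma with the replicate number as a block estimates. A gene was called at a Benjamini-Hochberg adjusted p under 0.05 over 11963 genes. Levels of different genes are not comparable on such an array, so only the same gene is compared across nuclei.

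Of 7 markers of thalamic relay neurons 6 were measured and 0 were called. TCF7L2, a transcription factor of thalamic neurons, lay at 12.38 and 12.76 in Ventral Thalamus and between 11.78 and 12.999 in the other nuclei. SLC17A6, the vesicular glutamate transporter of relay neurons, lay at 10.87 and 11.54 and was the highest of the 5 nuclei in both replicate sets, although its difference of 0.53 was not called (adjusted p = 0.0984). GBX2, a transcription factor of thalamic development that persists in midline nuclei, lay at 5.12 and 4.87 in Ventral Thalamus and at 5.09, 5.49 and 6.45 as the lowest, median and highest of the other 8 arrays. RORA, an orphan nuclear receptor, lay at 7.82 and 8.58 against 7.47, 7.86 and 8.64, LHX2, a homeobox factor, at 6.22 and 6.10 against 6.03, 6.30 and 6.64 and PRKCD, a protein kinase C, at 6.03 and 5.83 against 5.72, 5.97 and 6.41. Since levels of different genes are not comparable, these values compare the nuclei and do not measure how much of each marker was present. The 5 measured markers of striatal and cortical neurons, DRD1, DRD2, SLC17A7, NEUROD6 and TBR1, were not called, with adjusted p from 0.686 to 0.921.

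The 10 arrays were not alike in ways that the nuclei do not define. In replicate 1, XIST, the transcript that silences an X chromosome in females, lay at 6.86 in Ventral Thalamus, 7.22 in Anterior Thalamus and 6.70 in Medial Thalamus, against 8.96 in Centre Median and 9.60 in Pulvinar. RPS4Y1, a Y-linked ribosomal protein gene, ran the other way, at 8.94, 8.20 and 8.16 in the first 3 and 7.65 and 7.22 in the last 2. On the 5 replicate 2 arrays XIST lay between 9.86 and 10.34. The Medial Thalamus replicate 2 array stood apart by another set of genes: TTR, the transport protein made by choroid plexus, lay at 12.19 there and at no more than 8.41 on the 9 others, with 7.53 and 7.28 in Ventral Thalamus. POU4F1, a habenular transcription factor, lay at 7.36 on that array and at 5.60 and 5.60 in Ventral Thalamus.

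The control probe sets for actin and GAPDH sample each transcript near its 3' end and near its 5' end, and their difference grows when RNA is degraded or incompletely copied. The actin difference was 1.22 in Ventral Thalamus replicate 1, against -0.09 to 0.46 in the other 4 nuclei. In replicate 2 it was 1.64 in Ventral Thalamus, against 1.15 to 1.36. Ventral Thalamus was thus the highest in both sets, by 0.95 in replicate 1 and 0.36 in replicate 2 over the mean of the others. The GAPDH difference was 0.84 in Ventral Thalamus against 0.24 to 0.53 in replicate 1, and 0.80 against 0.62 to 0.78 in replicate 2. It exceeded the mean of the others by 0.49 in replicate 1 and by 0.10 in replicate 2. In an exact two-sided permutation test over the 25 ways to name 1 array of each set as Ventral Thalamus, p was 0.04 for actin and 0.04 for GAPDH, the smallest this design can give. In replicate 1 the excess came more from the 5' side than from the 3' side. The actin 5' probe set read 10.61 in Ventral Thalamus replicate 1, against 11.17 to 11.50 in the other nuclei, and the 3' probe set read 11.83 against 11.40 to 11.67. In replicate 2 the actin 5' probe set read 10.49 in Ventral Thalamus and 10.48 to 10.78 in the others, so there it lay inside their range, while the 3' probe set, at 12.14 against 11.84 to 12.05, lay above theirs.

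**Figure D1:**
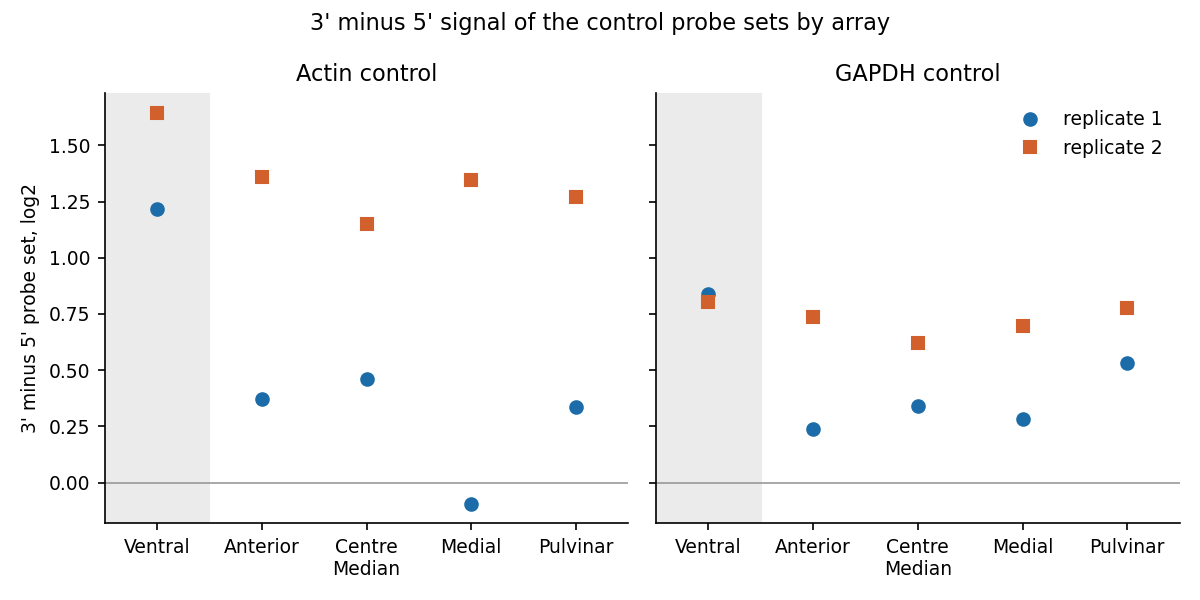
The log2 difference between the 3' and 5' control probe sets of actin (left) and GAPDH (right) is plotted for each of the 10 arrays, by nucleus, with circles for replicate 1 and squares for replicate 2. The Ventral Thalamus array has the highest value of its replicate set in each panel, with 1.22 and 1.64 for actin and 0.84 and 0.80 for GAPDH.

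Ventral Thalamus differed from the mean of the other nuclei in 63 genes, 49 higher and 14 lower. The percentages of all genes called were 0.527% in either direction, 0.41% higher and 0.117% lower. With p left unadjusted, 983 genes (8.22%) passed 0.05 as higher and 441 (3.69%) as lower. By size, 10 genes were at least 2-fold higher (0.0836%) and 7 at least 2-fold lower (0.0585%). The difference of all genes had a median of -0.01, with 46.6% above 0 and 53.4% below. The counts of list members below are to be read against these shares of all genes. Of the 49 called higher, 48 had their Ventral Thalamus array at the top of the 5 nuclei in both replicate sets, which held for 8.69% of all genes, and SCN1A was the exception. Of the 14 called lower, 11 were at the bottom in both sets, which held for 5.78% of all genes. For 23 of the 49 both Ventral Thalamus arrays lay above all 8 other arrays (1.96% of all genes), and for 6 of the 14 both lay below them (0.861%). These ranks use the same values as the calls. Their excess over the shares of all genes therefore follows largely from the selection and is not independent support. The other called genes overlapped the other nuclei when arrays of different replicate number were set side by side, and SCN1A, WIF1, DPYSL3 and NCALD also overlapped them within a replicate set.

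**Figure D2:**
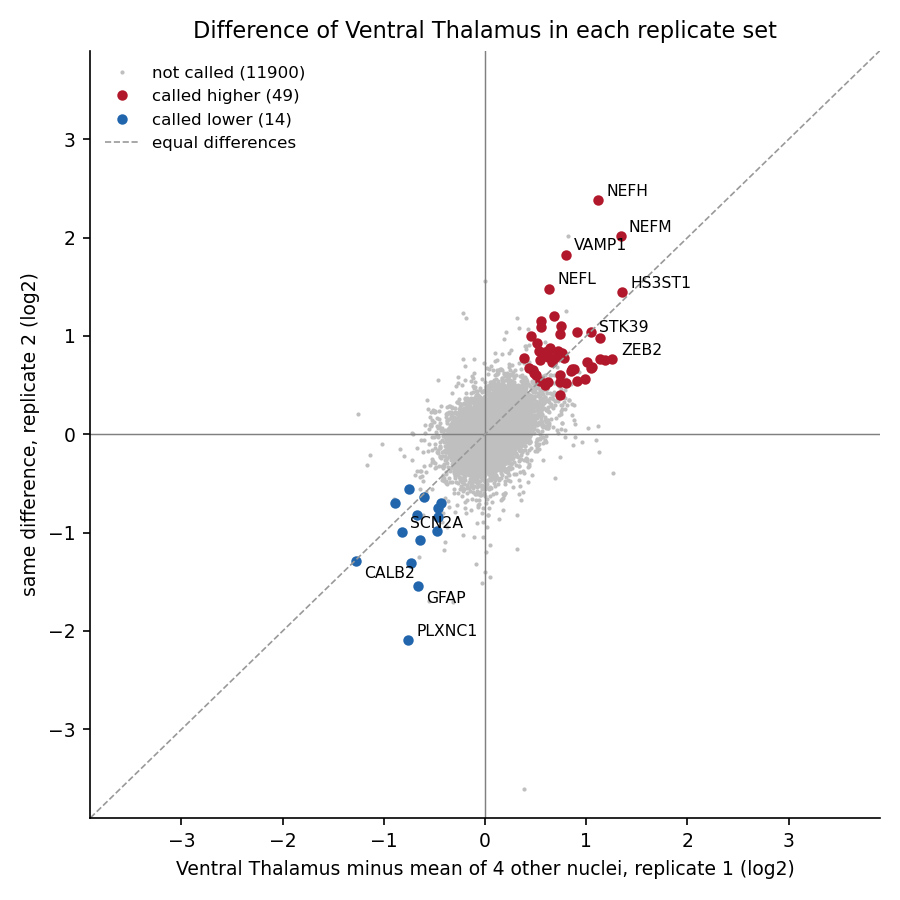
Each of 11963 genes is plotted by its difference between Ventral Thalamus and the mean of the other 4 nuclei in replicate 1 (horizontal) and replicate 2 (vertical), both in log2 units, with the 49 genes called higher in red, the 14 called lower in blue and the others in grey. All 63 called genes lie in the upper right or lower left corner, where both differences have the same sign. They were called from the mean of these same differences, so this is not independent support.

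The 49 higher genes had a median difference of 0.74 in replicate 1 and 0.77 in replicate 2, and the 14 lower genes had medians of -0.67 and -0.91. In 41 of the 63 genes the difference was larger in replicate 2, which held for 6331 of all 11963 genes. Pulvinar was the nearest nucleus for 25 of the 49 higher genes, Anterior Thalamus for 13, Centre Median for 11 and Medial Thalamus for 0. Medial Thalamus was the farthest for 31 of the 49. For the 14 lower genes no nucleus was nearest for more than 4, and Centre Median was the farthest for 7 and Medial Thalamus for 6. Over all genes Pulvinar was nearest for 3640 and Medial Thalamus was farthest for 3952 of 11963.

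The number of calls differed between fits. When limma was fitted without the block it called 0 genes, and 188 (1.57%) passed an unadjusted 0.05. With the block, 0 of the 63 were called once the second Ventral Thalamus array was left out, and 16 once the first was. Each of these 2 fits holds 1 Ventral Thalamus array, whose spread is assumed to equal that between the arrays of the other nuclei. Leaving out the first or the second Anterior Thalamus array left 26 or 34 of the 63 called, and leaving out the first or the second Centre Median array left 26 or 17. All 63 were called when the first Medial Thalamus array was left out, and 62 when the second one, which carried TTR, was. When the replicate 1 arrays were split within the block at an XIST level of 8, 57 of the 63 were called. All 63 kept their sign in each of these fits. Without the block the differences are unchanged, because the design is balanced. With 1 Ventral Thalamus array left, they equal the differences of its own replicate set, which had the same sign in both sets for all 63. The kept sign is therefore no check in those fits.

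The neurofilament genes NEFH and NEFM had the largest increases of the 49 genes called higher. NEFH, NEFM and NEFL, the heavy, medium and light subunits of the filaments that set axon calibre, rose by 1.75, 1.68 and 1.06 (SE 0.234, 0.208 and 0.183), or 3.36-, 3.20- and 2.08-fold. NEFH lay at 10.96 and 12.12 in Ventral Thalamus and at 9.25, 9.78 and 10.29 as the lowest, median and highest of the other 8 arrays. NEFM lay at 10.98 and 11.96, against 9.02, 9.95 and 10.38, and NEFL at 12.004 and 12.58, against 11.04, 11.15 and 11.62. In all 3 genes both Ventral Thalamus arrays lay above the 8 others, and Pulvinar was the nearest nucleus. The differences were larger in replicate 2, at 2.38, 2.02 and 1.48, than in replicate 1, at 1.12, 1.34 and 0.63. Further probe sets had the same sign, at 1.28 for NEFH and at 0.53 and 0.76 for NEFL. INA, or internexin, which joins these filaments in central neurons, lay at 11.54 and 11.66 in Ventral Thalamus against 10.61, 10.99 and 11.24 and missed the threshold (difference 0.65, adjusted p = 0.0801). PRPH, a filament of peripheral neurons, differed by -0.11 (adjusted p = 0.758).

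Of 19 measured tubulin, microtubule-associated and motor genes 0 were called and 12 lay above 0, with a median of 0.12. TUBA4A, a tubulin, differed by 0.47, STMN2, a regulator of microtubule growth, by 0.42 and KIF5B, a kinesin motor, by 0.43, while MAP2, a dendritic microtubule protein, differed by -0.56 (adjusted p from 0.124 to 0.466). A test of whether neurofilaments differed from microtubule genes was not made.

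**Figure D3:**
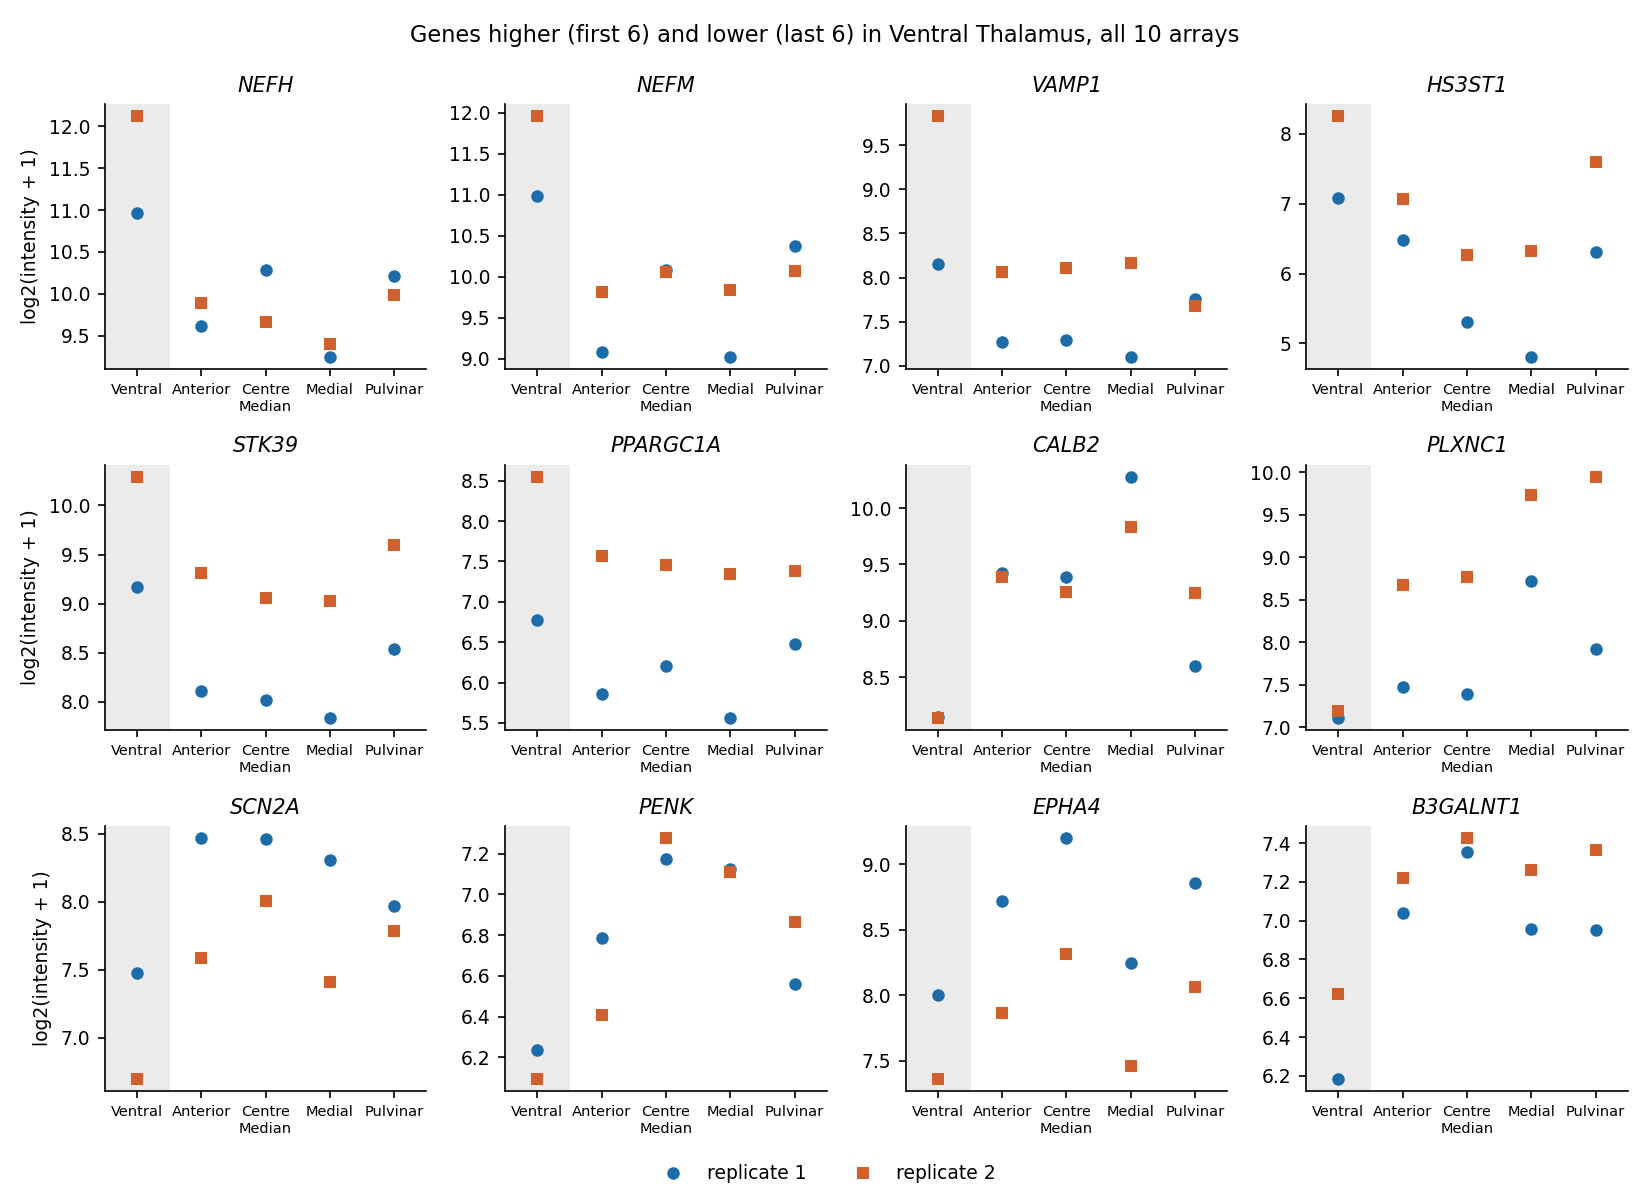
The log2 level of 12 called genes is plotted for all 10 arrays, with Ventral Thalamus at the left on grey, circles for replicate 1 and squares for replicate 2. NEFH, NEFM, VAMP1, HS3ST1, STK39 and PPARGC1A have their highest value of each replicate set in Ventral Thalamus, and CALB2, PLXNC1, SCN2A, PENK, EPHA4 and B3GALNT1 have their lowest.

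Voltage-gated sodium channels, which start and carry action potentials, held 2 called genes, which went in opposite directions. SCN1A, the channel typical of fast-firing neurons, rose by 0.94 (SE 0.187, adjusted p = 0.049), at 6.88 and 9.56 in Ventral Thalamus. The other nuclei had 5.43, 7.37 and 8.75 as their lowest, median and highest values, a range that holds the lower Ventral Thalamus value. In replicate 1 the 6.88 of Ventral Thalamus was just under the 6.89 of Centre Median, and the other nuclei were higher in replicate 2 than in replicate 1 by a mean of 2.15. SCN2A, the channel of immature and unmyelinated axons, fell by 0.91 (SE 0.134, adjusted p = 0.0137), at 7.48 and 6.70 in Ventral Thalamus against 7.41, 7.99 and 8.47. SCN2A was lowest in Ventral Thalamus in both sets. Of the other measured subunits, SCN3A differed by -0.74 (adjusted p = 0.0652) and SCN2B, an auxiliary subunit, by -0.43 (adjusted p = 0.226). Of 6 measured sodium channel genes 1 was called higher and 1 lower, with a median of -0.41. In this list 2 lay above 0 and 4 below, and at an unadjusted p under 0.05 there were 1 higher and 4 lower.

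ANK3, or ankyrin G, which anchors sodium channels at the axon initial segment and nodes of Ranvier, rose by 0.69 (SE 0.131, adjusted p = 0.0391). Its level was 10.34 and 11.20 in Ventral Thalamus and 9.47, 10.10 and 10.54 in the others. One of its other probe sets differed by 0.49 and another by -0.12. Of 11 measured genes of the node and paranode 9 lay above 0, with a median of 0.17, and ANK3 was the 1 called. NFASC, a cell adhesion molecule of the node, differed by 0.39 and EPB41L3, a paranodal scaffold, by 0.35, whereas CNTN1, the axonal contactin, differed by -0.50. These 3 were not called (adjusted p of 0.248, 0.239 and 0.164).

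In the lists of potassium and of voltage-gated calcium channels limma called 0 genes. Of 27 measured potassium and HCN channel genes 13 lay above 0, with a median of -0.01, and 6 had an unadjusted p under 0.05, 4 higher and 2 lower. KCNH2, an ERG-type channel, differed by 0.41 and KCNA1, a channel of juxtaparanodes and fast axons, by 0.38, while KCNA3 differed by -0.50 and KCNK2, a two-pore leak channel, by -0.43. KCNA1 lay at 6.20 and 6.30 in Ventral Thalamus and at 5.46, 5.92 and 6.14 in the others, so both arrays stood above the 8 others by a small margin. Of 16 calcium channel genes 3 lay above 0, with a median of -0.06, and 4 had an unadjusted p under 0.05, 2 higher and 2 lower. CACNA1A, the pore of P/Q-type release channels, differed by 0.39 (adjusted p = 0.162). CACNA2D3, an auxiliary subunit, lay at 7.91 and 7.28 in Ventral Thalamus against 7.73, 8.42 and 9.98 and differed by -0.95 (adjusted p = 0.114). CACNG3 and CACNB2, a further pair of auxiliary subunits, differed by -0.27 and -0.26.

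Ion pumps and their regulators included 2 called genes among 14 measured, both higher. STK39, the kinase that switches sodium and chloride cotransporters, rose by 1.04 (SE 0.0989, adjusted p = 0.00147) and had the smallest p of all genes. It lay at 9.17 and 10.29 in Ventral Thalamus against 7.84, 8.78 and 9.59, and the difference was 1.05 in replicate 1 and 1.04 in replicate 2. Ventral Thalamus was the highest of each replicate set, and 2 of the other nuclei in replicate 2 exceeded Ventral Thalamus replicate 1. ATP2B2, a plasma membrane calcium pump with fast kinetics, rose by 0.56 (adjusted p = 0.0451), at 10.01 and 10.20 against 9.31, 9.52 and 9.78, above all 8 others on both arrays. ATP2B1, a related pump, differed by 0.67 (adjusted p = 0.0513), just outside the threshold, and another of its probe sets, tested on its own, was called at 0.71 (adjusted p = 0.028). ATP1B1, a subunit of the sodium pump, differed by 0.46 (adjusted p = 0.239). The other probe sets of ATP2B2 differed by 0.14 and -0.19.

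Calcium-binding proteins divided the nuclei. CALB2, or calretinin, fell by 1.28 (SE 0.159, adjusted p = 0.0049) and lay at 8.15 and 8.14 in Ventral Thalamus against 8.60, 9.39 and 10.28. Both arrays were below all 8 others, the difference was -1.27 in replicate 1 and -1.29 in replicate 2, and Medial Thalamus was the farthest nucleus. NCALD, or neurocalcin delta, a calcium sensor, fell by 0.61 (adjusted p = 0.0426), at 7.18 and 6.87 against 7.18, 7.63 and 8.03. PCP4, a calmodulin regulator, rose by 0.78 (adjusted p = 0.0369), at 11.95 and 12.05 against 10.31, 11.34 and 11.80, with Centre Median the farthest. PVALB, or parvalbumin, had a larger difference of 1.42 that was not called (SE 0.387, adjusted p = 0.138). Its level was 10.07 and 11.80 in Ventral Thalamus and ranged from 7.91 to 11.32 in the others, where Centre Median replicate 1 was the highest. The Ventral Thalamus mean of 10.93 was close to the Centre Median mean of 10.85, and the Pulvinar, Anterior and Medial means followed at 9.83, 8.78 and 8.60. CALB1, or calbindin, lay at 7.26 and 8.35 against 5.71, 7.70 and 9.55 (difference 0.06, adjusted p = 0.983), and HPCAL4, a hippocalcin-like sensor, differed by -0.66 (adjusted p = 0.125). Of 13 measured genes of this list 1 was called higher and 2 lower.

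At the synapse the clear change was VAMP1, the vesicle SNARE that predominates in fast relay pathways of brainstem and spinal cord. It rose by 1.31 (SE 0.219, adjusted p = 0.021), at 8.15 and 9.83 in Ventral Thalamus against 7.10, 7.72 and 8.16. In replicate 1 its value of 8.15 was just under the 8.16 of Medial Thalamus replicate 2, and within each set Ventral Thalamus was the highest. Its other probe sets differed by 0.45 and 0.12. Of 26 measured genes of vesicle release 19 lay above 0, with a median of 0.11, and VAMP1 was the 1 called. SV2B, a vesicle glycoprotein, differed by 0.48, SYP, or synaptophysin, by 0.42 and RIMS1, a scaffold of the release site, by -0.51 (adjusted p of 0.107, 0.434 and 0.0878).

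Among 18 glutamate transporters and receptors 0 were called (1 up and 2 down at an unadjusted p below 0.05), and the median was -0.04. GRIA1 and GRIA4, AMPA receptor subunits, differed by -0.27 and -0.23, GRM8, a presynaptic metabotropic receptor, by 0.16 and SLC17A7, the cortical type of vesicular glutamate transporter, by -0.05. Among 9 GABA receptor genes 0 were called (1 up and 1 down at an unadjusted p below 0.05). GABRA3 differed by -0.40, GABRB1 by -0.32, and the GABA-B subunits GABBR2 and GABBR1 by 0.32 and 0.27. ADCY1, a calcium-stimulated adenylyl cyclase of sensory synapses, rose by 0.86 (adjusted p = 0.0369), at 9.38 and 9.62 against 8.21, 8.69 and 9.02. Its other probe sets differed by -0.28 and -0.04.

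Energy metabolism showed many small differences in one direction. All 60 measured subunits of the respiratory chain and ATP synthase lay above 0, against 46.6% of all genes, with a median of 0.33 against -0.01 for all genes. The median was 0.26 in replicate 1 and 0.37 in replicate 2. Ventral Thalamus was the highest nucleus in both sets for 39 of the 60, against 8.69% of all genes. By complex the medians were 0.29 for the 27 subunits of complex I, 0.33 for the 3 of complex II, 0.32 for the 7 of complex III, 0.33 for the 10 of complex IV and 0.40 for the 13 of ATP synthase. For ATP synthase, 12 of the 13 were highest in Ventral Thalamus in both sets. No subunit was called by limma over all genes, and 39 of the 60 had an unadjusted p under 0.05, all higher, against 8.22% of all genes. The largest differences were 0.55 for COX7A2 and 0.55 for COX5A, both of cytochrome oxidase, 0.53 for ATP5PF of ATP synthase and 0.53 for NDUFA6 of complex I (adjusted p from 0.0688 to 0.119). NDUFA6 lay at 9.35 and 10.20 in Ventral Thalamus and at 8.60, 9.26 and 9.85 in the others, and COX5A at 10.52 and 10.93 against 9.86, 10.18 and 10.47. COX5A stood above all 8 other arrays on both, and NDUFA6 overlapped them across replicate numbers.

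Enzymes that feed the chain lay the same way. Of 16 citric acid cycle and pyruvate enzymes 15 lay above 0, with a median of 0.28, 0 called and 10 higher at an unadjusted p under 0.05. SUCLA2 and SUCLG1, subunits of succinyl-CoA ligase, differed by 0.48 and 0.37, MDH1, a malate dehydrogenase, by 0.38 and IDH3B, of isocitrate dehydrogenase, by 0.37. Of 16 glycolytic and creatine kinase genes 15 lay above 0, with a median of 0.21, 0 called and 7 higher at an unadjusted p under 0.05. LDHB, the lactate dehydrogenase subunit of oxidative tissue, differed by 0.62, ENO2, neuronal enolase, by 0.54, PGK1 by 0.42 and PFKP by 0.42 (adjusted p from 0.114 to 0.387). The control gene GAPDH itself differed by 0.11 and ACTB by 0.03 in their ordinary probe sets.

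Among regulators of mitochondrial genes 2 were called. PPARGC1A, the coactivator that drives mitochondrial biogenesis, rose by 0.93 (SE 0.153, adjusted p = 0.021), at 6.78 and 8.54 against 5.56, 6.91 and 7.57. ESRRG, an orphan nuclear receptor that PPARGC1A coactivates, rose by 0.58 (SE 0.109, adjusted p = 0.0374), at 7.43 and 8.52 against 6.86, 7.32 and 7.94, and its other probe set differed by 0.42. ESRRA, the related receptor, lay above all 8 others at 8.57 and 8.72 against 8.13, 8.26 and 8.37 but was not called (difference 0.38, adjusted p = 0.142). MEF2C, a muscle and neuronal transcription factor, differed by -0.60 (adjusted p = 0.0578). Of the 12 measured regulators 6 lay above 0 and 6 below, with 2 called higher and 0 lower. Cytosolic ribosomal proteins lay above 0 for 31 of 39, with a median of 0.11 that was 0.23 in replicate 1 and -0.04 in replicate 2. For the ribosomal list the 2 sets therefore differed in sign, and 0 members were called (1 higher at an unadjusted p under 0.05). Its largest differences were 0.34 for RPS25, 0.32 for RPS9, 0.27 for RPS7 and 0.26 for RPS19.

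**Figure D4:**
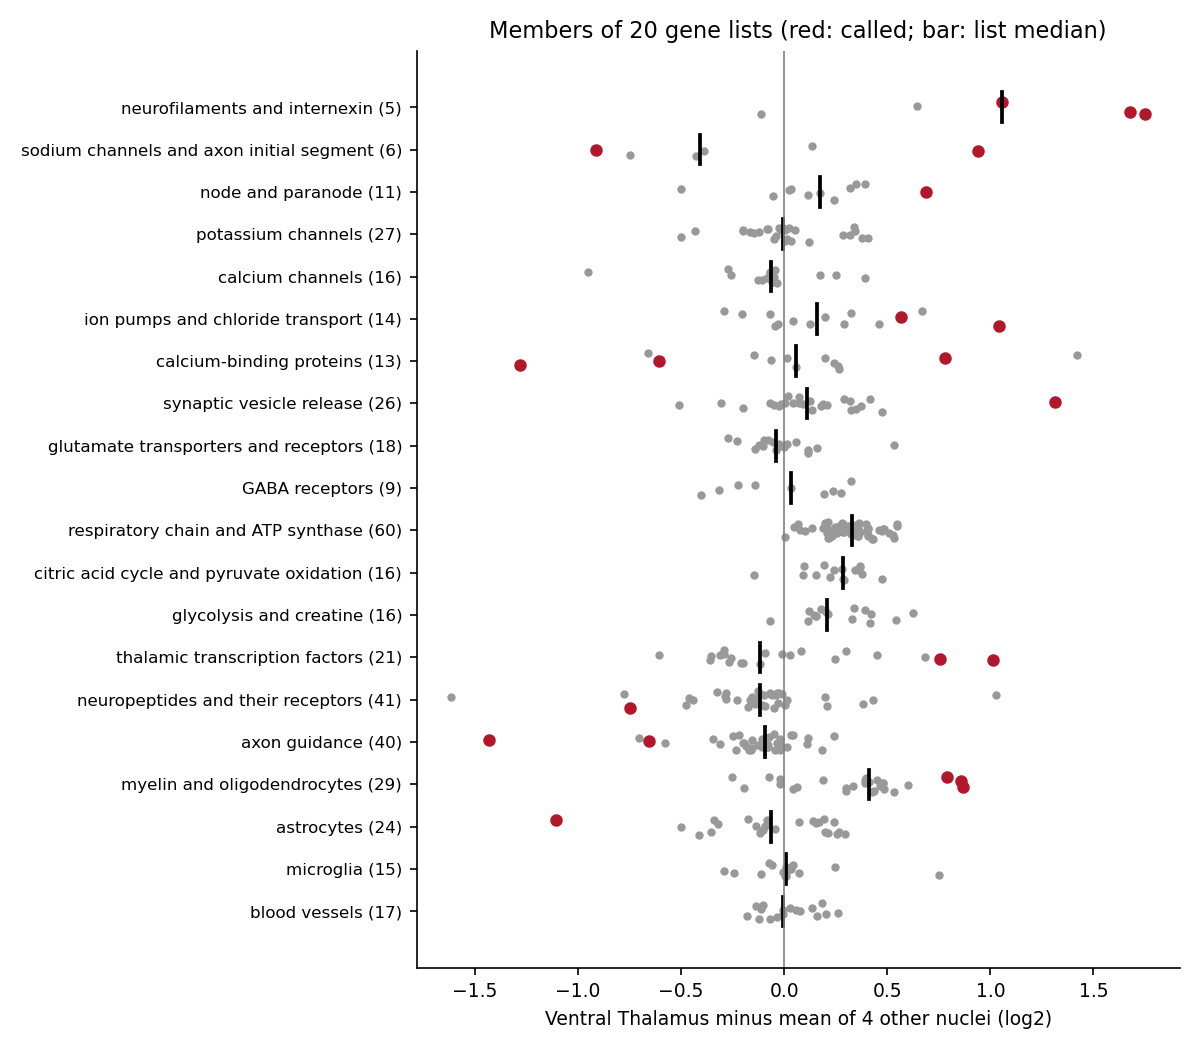
Each point is the log2 difference of 1 gene between Ventral Thalamus and the mean of the other 4 nuclei, for the measured members (number in brackets) of 20 gene lists, with called genes in red and a black bar at the list median. Respiratory chain, citric acid cycle and myelin members lie mostly to the right of 0, with medians of 0.33, 0.28 and 0.41, and most neuropeptide and axon guidance members lie to the left.

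The list of thalamic transcription factors held 2 called genes, both higher, among 21 measured. Of the 21, 8 lay above 0 and 13 below, with a median of -0.12. ZEB2, a zinc finger repressor, rose by 1.01 (SE 0.196, adjusted p = 0.0434) and SHOX2, a homeobox gene, by 0.76 (SE 0.142, adjusted p = 0.0374). ZEB2 lay at 7.65 and 10.36 in Ventral Thalamus and at 5.29, 8.13 and 9.90 in the others, and the other nuclei were higher in replicate 2 than in replicate 1 by a mean of 3.20, more than the difference of Ventral Thalamus. SHOX2 lay at 9.15 and 10.29 against 8.04, 9.05 and 9.83, and its other probe sets differed by 0.31 and -0.02. ETV1, an ETS factor, differed by 0.68 with Centre Median higher still, at a mean of 9.92 against 9.47 in Ventral Thalamus. GBX2 differed by -0.61 (adjusted p = 0.377), and at an unadjusted p under 0.05 the list held 4 higher and 6 lower genes.

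In the lists of guidance genes and cadherins 3 genes were called, all lower. PLXNC1, a semaphorin receptor, fell by 1.43 (SE 0.24, adjusted p = 0.021). It lay at 7.11 and 7.18 in Ventral Thalamus against 7.38, 8.69 and 9.94, below all 8 others on both arrays. The difference was -0.76 in replicate 1 and -2.10 in replicate 2, and the other nuclei were higher in replicate 2 by a mean of 1.41, while the 2 Ventral Thalamus arrays were close. EPHA4, an ephrin receptor of axon guidance, fell by 0.66 (adjusted p = 0.0137), at 8.001 and 7.36 against 7.46, 8.28 and 9.20, and Medial Thalamus was the nearest nucleus and Centre Median the farthest. CDH8, a cadherin, fell by 0.65 (adjusted p = 0.0391), at 7.75 and 6.87 against 7.53, 8.01 and 8.42, while its other probe set differed by 0.14. Of 40 guidance genes 33 lay below 0, against 53.4% of all genes, with a median of -0.09, 2 called lower and 0 higher. EPHA3 differed by -0.70 and EFNB3, an ephrin ligand, by -0.58 (adjusted p of 0.192 and 0.156). Of 17 cadherins 9 lay below 0, and CDH12, PCDH7 and PCDH8 differed by 0.78, 0.45 and 0.50 without being called. DPYSL3, a cytoplasmic mediator of growth cone collapse, fell by 0.73 (adjusted p = 0.0225), at 7.28 and 6.77 against 7.22, 7.83 and 8.28. Its other probe set differed by -0.52.

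PENK, the precursor of the enkephalin opioid peptides, fell by 0.75 (SE 0.12, adjusted p = 0.021). It lay at 6.24 and 6.10 in Ventral Thalamus against 6.41, 6.99 and 7.28, below all 8 others, with Anterior Thalamus the nearest nucleus. Of 41 measured peptide precursors and receptors 34 lay below 0, against 53.4% of all genes, with a median of -0.12. In this list 1 gene was called lower and 0 higher. At an unadjusted p below 0.05, 10 were down and 1 up, against 3.69% and 8.22% of all genes. NTS, or neurotensin, had the largest difference of the list, -1.61, and was not called (adjusted p = 0.268). It lay at 10.87 in Ventral Thalamus replicate 1 and at 6.40 in replicate 2, against 8.98, 10.12 and 11.39, so the low mean came from the replicate 2 array alone. TAC1, the substance P precursor, lay at 4.11 and 4.33 against 4.23, 4.69 and 6.53 (difference -0.78, adjusted p = 0.271). SST, or somatostatin, lay at 9.10 and 8.61 against a median of 7.53 and a highest value of 9.80, with a difference of 1.03 and an adjusted p of 0.193, and Anterior Thalamus replicate 1 held its highest value. Of 30 serotonin, dopamine, adrenergic and acetylcholine receptors 0 were called (0 up and 4 down at an unadjusted p below 0.05). HTR2C had the largest difference, -1.12 (adjusted p = 0.342), with 5.13 and 4.52 in Ventral Thalamus and its highest value of 8.83 on the Medial Thalamus array that carried TTR. ADRA2A, HTR5A and HTR1E differed by -0.39, -0.30 and -0.25.

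Myelin genes lay higher in Ventral Thalamus. Of 29 measured oligodendrocyte and myelin genes 24 lay above 0, with a median of 0.41, 0.35 in replicate 1 and 0.33 in replicate 2. CNP, an enzyme of the myelin sheath, rose by 0.87 (adjusted p = 0.021), MAG, an adhesion molecule of the inner sheath, by 0.86 (adjusted p = 0.0112) and TF, or transferrin, which oligodendrocytes make, by 0.79 (adjusted p = 0.00465). CNP lay at 10.26 and 10.34 against 8.80, 9.52 and 9.76, MAG at 9.13 and 8.88 against 7.76, 8.27 and 8.43 and TF at 8.64 and 8.87 against 7.65, 7.96 and 8.22. In all 3 genes both Ventral Thalamus arrays were above the 8 others. The other probe sets of TF differed by 0.89, 0.11 and -0.01, and that of MAG by -0.05. MOG, a surface protein of the sheath, differed by 0.40 in its brightest probe set and was not called (adjusted p = 0.193). Another of its probe sets was called at 0.67 when tested on its own (adjusted p = 0.0249). MBP, a myelin protein, differed by 0.48 and was not called (adjusted p = 0.246). MOBP, a further myelin protein, differed by 0.87 and was not called (SE 0.222, adjusted p = 0.115), at 11.56 and 11.74 against 9.89, 10.93 and 11.35. The summed intensity of the 4 measured oligodendrocyte markers was 13.73 and 14.05 on the log2 scale in Ventral Thalamus, against 12.70 to 13.77 on the other arrays, and was the highest of each replicate set. In such punches a larger share of a cell type and more RNA per cell cannot be told apart, and the part of the oligodendrocyte signal in the neuronal differences above was not tested. GSN, or gelsolin, an actin-severing protein that is also abundant in oligodendrocytes, rose by 0.87 (adjusted p = 0.021), and PAQR6, a membrane progestin receptor, by 0.77 (adjusted p = 0.0369). The other probe set of GSN differed by -0.03.

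GFAP, the intermediate filament of astrocytes, fell by 1.11 (SE 0.208, adjusted p = 0.0378), at 10.08 and 9.99 in Ventral Thalamus against 10.17, 11.22 and 12.44. Both arrays lay below all 8 others, the nearest being Anterior Thalamus, and Medial Thalamus replicate 2 held the highest value. Of 24 measured astrocyte genes, 11 lay above 0 and 13 below, with a median of -0.07, and GFAP was the 1 called. AQP4, the astrocyte water channel, differed by -0.50, AGT, or angiotensinogen, by -0.41 and ID3 by -0.35 (adjusted p of 0.393, 0.179 and 0.498). When each probe set was tested on its own, another probe set of AQP4 was called at -1.27 (adjusted p = 0.0212), with 5.36 and 6.84 in Ventral Thalamus against 6.92 to 8.10, and another of ID4 at -0.65 (adjusted p = 0.0367). The other probe set of GFAP differed by -0.22. The summed intensity of the 5 astrocyte markers was 11.50 and 11.83 in Ventral Thalamus, each the lowest of its replicate set, against 11.51 to 13.20. It adds linear intensities, so bright probe sets such as that of GFAP weigh most. Besides GFAP and AQP4, SLC1A3 and GJA1 differed by -0.09 and -0.12. ALDH1L1 differed by 0.14 and was the highest of the 5 nuclei in both sets. WIF1, a secreted Wnt inhibitor, fell by 1.02 (adjusted p = 0.0447), at 4.63 and 4.86 against 4.42, 5.88 and 6.37. Pulvinar replicate 1 was lower than either Ventral Thalamus array. These levels are near the low end of the arrays: GBX2, at a Ventral Thalamus mean of 4.995, lay at percentile 8.57 of all genes. Whether signals this low reflect expression was not tested.

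Of the lists for other cell types the punches could hold, the striatal list had 1 gene called by limma and the others had 0. For microglia 0 of 15 were called (2 up and 0 down at an unadjusted p below 0.05), for blood vessels 0 of 17 (1 higher and 0 lower), for ependyma, choroid plexus and meninges 0 of 13 (0 and 0) and for oligodendrocyte precursors 0 of 6 (2 higher and 0 lower). SPP1, or osteopontin, differed by 0.75, PECAM1, an endothelial adhesion molecule, by 0.26 and VCAN, a proteoglycan of precursor cells, by 0.54. TTR lay at 7.53 and 7.28 in Ventral Thalamus, against 7.17, 7.96 and 12.19 in the others. GABAergic neurons of the neighbouring reticular nucleus or of the relay nuclei themselves were read from 10 genes, of which 0 were called and 4 were higher at an unadjusted p under 0.05. GAD1 and GAD2, which make GABA, lay at 9.98 and 10.61 and at 9.40 and 9.52 in Ventral Thalamus, against 8.54, 9.93 and 10.27 and 8.74, 8.99 and 9.64, and differed by 0.49 and 0.40 (adjusted p of 0.24 and 0.269). PVALB and SST, given above, are members of this list as well, and its part in their differences was not tested. For habenula 0 of 6 genes were called (0 up and 1 down at an unadjusted p below 0.05) and for cortical excitatory neurons 0 of 7 (0 and 1). For striatum, PENK was the 1 called of 7, and PDE10A and ARPP21, which are abundant in striatal neurons, differed by 0.14 and -0.12.

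Activity and stress genes held no called gene by limma. Of 13 immediate early genes 0 were called (1 up and 1 down at an unadjusted p below 0.05), with a median of -0.04. NPTX2, a synaptic pentraxin, differed by 0.46, BDNF by -0.43, JUNB by 0.24 and DUSP1 by 0.21. Of 13 heat shock and stress genes 0 were called (3 higher and 0 lower), with a median of 0.12. HIF1A differed by 0.29, HSPA5 by 0.29, HSPB1 by 0.25 and HSP90AA1 by 0.22.

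Of 28 measured genes of heparan and chondroitin sulfate proteoglycans 1 was called. HS3ST1, which adds a rare sulfate to heparan sulfate chains, rose by 1.40 (SE 0.141, adjusted p = 0.0015), at 7.08 and 8.26 against 4.81, 6.31 and 7.60. Its difference was 1.35 in replicate 1 and 1.44 in replicate 2, and its other probe sets differed by 0.02 and -0.16. The core proteins SDC4 and SDC2, or syndecans, differed by 0.56 and -0.54 (adjusted p of 0.208 and 0.114). Outside that list, B3GALNT1, a glycosyltransferase of globoside synthesis, fell by 0.79 (SE 0.103, adjusted p = 0.00658), at 6.18 and 6.62 against 6.95, 7.24 and 7.43, below all 8 others on both arrays. ST8SIA4, a polysialyltransferase that modifies neural cell adhesion molecule, fell by 0.57 (adjusted p = 0.021). It lay at 5.25 and 4.56 in Ventral Thalamus, near the low end of the arrays, against 5.13, 5.44 and 5.97. CA10, a secreted neurexin ligand, fell by 0.86 (adjusted p = 0.021). CA10 lay at 6.88 and 7.56 against 6.92, 8.27 and 8.82. CDS1, which makes the CDP-diacylglycerol used for phosphoinositides, rose by 0.97 (adjusted p = 0.0181), at 8.14 and 9.98 against 6.33, 8.15 and 9.34. The other probe set of CDS1 differed by 0.0026.

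The called genes that follow belonged to no list. OPN3, a non-visual opsin, rose by 1.06 (SE 0.115, adjusted p = 0.00223), at 8.92 and 9.16 against 7.02, 7.94 and 8.83, above all 8 others. WSB2 and FBXW7, substrate receptors of ubiquitin ligases, rose by 0.97 and 0.78, and RPS6KA2, a ribosomal S6 kinase, rose by 0.88 (adjusted p of 0.0239, 0.0397 and 0.021). WSB2 lay at 10.54 and 10.49 against 8.90, 9.48 and 10.12, and RPS6KA2 at 8.47 and 9.05 against 7.29, 7.98 and 8.22, both above all 8 others. The other probe set of RPS6KA2 differed by 0.03. NACC2, a transcriptional repressor, CITED2, a transcriptional co-regulator, and CEBPB, a leucine zipper factor, rose by 0.95, 0.77 and 0.76 (adjusted p of 0.0269, 0.0137 and 0.0191). SMPX, a small cytoskeletal protein known from muscle and the inner ear, rose by 0.82 (adjusted p = 0.021), at 7.22 and 7.93 against 6.47, 6.77 and 6.95. NUDT21, a subunit of the pre-mRNA cleavage factor that selects polyadenylation sites, fell by 0.62 (adjusted p = 0.0328), at 5.93 and 6.25 against 6.28, 6.65 and 7.21, and its other probe set differed by -0.41. Of the called genes outside the rule for named genes, 3 of calcium and mitochondria were chosen after their values were seen. MPC1, a mitochondrial pyruvate carrier subunit, rose by 0.74, MCUR1, a regulator of the mitochondrial calcium uniporter, by 0.70 and RYR3, a calcium release channel, by 0.71.

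A list of relay neuron genes and a list of genes of higher-order and midline neurons sum up these families. Of 17 measured relay genes 16 lay above 0, with a median of 0.56 against -0.01 for all genes, 0.47 in replicate 1 and 0.73 in replicate 2. The 1 below 0 was SLC17A7, at -0.05, which is also read above as a marker of cortical neurons. The 8 called, all higher, were NEFH, NEFM, NEFL, VAMP1, SCN1A, PPARGC1A, ESRRG and ATP2B2. Of 21 measured higher-order genes 17 lay below 0, with a median of -0.33, and the 6 called, all lower, were CALB2, PENK, EPHA4, CDH8, SCN2A and CA10. Medial Thalamus was the farthest nucleus for CALB2 and CA10 but the nearest for EPHA4 and SCN2A, at means of 7.85 and 7.86. The nearest for CDH8 was Centre Median, at 7.80. The name of the list therefore does not describe the levels of all its called members in these nuclei. Both lists were assembled with earlier results of these arrays known, so their counts describe the profile and are not independent evidence of its direction. The 6 measured markers of thalamic relay neurons given at the start had 3 genes above 0, 0 called and a median of 0.008. The 4 exceptions in the second list were CALB1, CRH, NECAB2 and NPTX2, the last at 8.93 and 8.26 in Ventral Thalamus against 7.28, 8.19 and 9.04.

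The differences were set against the 3' minus 5' signal in the same fit. With the GAPDH signal as a covariate beside the block, all 63 genes kept their sign, 0 of the 63 were called, and 1 gene was called over all genes. That gene was CDH12, at 2.11 (limma adjusted p = 0.0139). The median ratio of the difference with this covariate to that without it was 1.03 over the 63 genes, and 4 shrank and 0 grew by over 1.5 times. The median SE of the 63 genes was 0.202 with the GAPDH covariate and 0.124 without it. With the actin signal as the covariate, all 63 kept their sign, 0 were called, and 8 other genes were called over all genes. Of these 8, 4 were higher and 4 lower. They included HTR2C at -3.30, SCN3A at -1.41 and PCDH8 at 1.75 (limma adjusted p of 0.0114, 0.0129 and 0.0114). Over the 63 genes the median ratio was 0.968 and the median SE 0.223, and 9 genes shrank and 3 grew by over 1.5 times. NEFH differed by 2.12 with the actin and 2.24 with the GAPDH covariate, PLXNC1 by -1.92 and -1.96 and STK39 by 0.98 and 0.99. ZEB2 differed by 0.17 with the actin and 0.66 with the GAPDH covariate, and NACC2 by 0.47 and 0.46, and these 2 were more than 1.5 times smaller with each. With actin alone, CDS1 at 0.61, GSN at 0.45, CEBPB at 0.43 and NUDT21 at -0.39 were also smaller by that factor, as were RWDD1 at 0.36, BICD2 at 0.24 and CBX3 at 0.25. In the same fit GFAP at -1.74, DPYSL3 at -1.14 and FGF9 at 1.12 were larger by it. With GAPDH alone, PAQR6 at 0.44 and LAP3 at 0.37 were smaller by it. Since the Ventral Thalamus array was the highest of its set in both control signals, the nucleus and the control signal are partly confounded, and with 3 residual degrees of freedom the 2 cannot be told apart gene by gene.

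**Figure D5:**
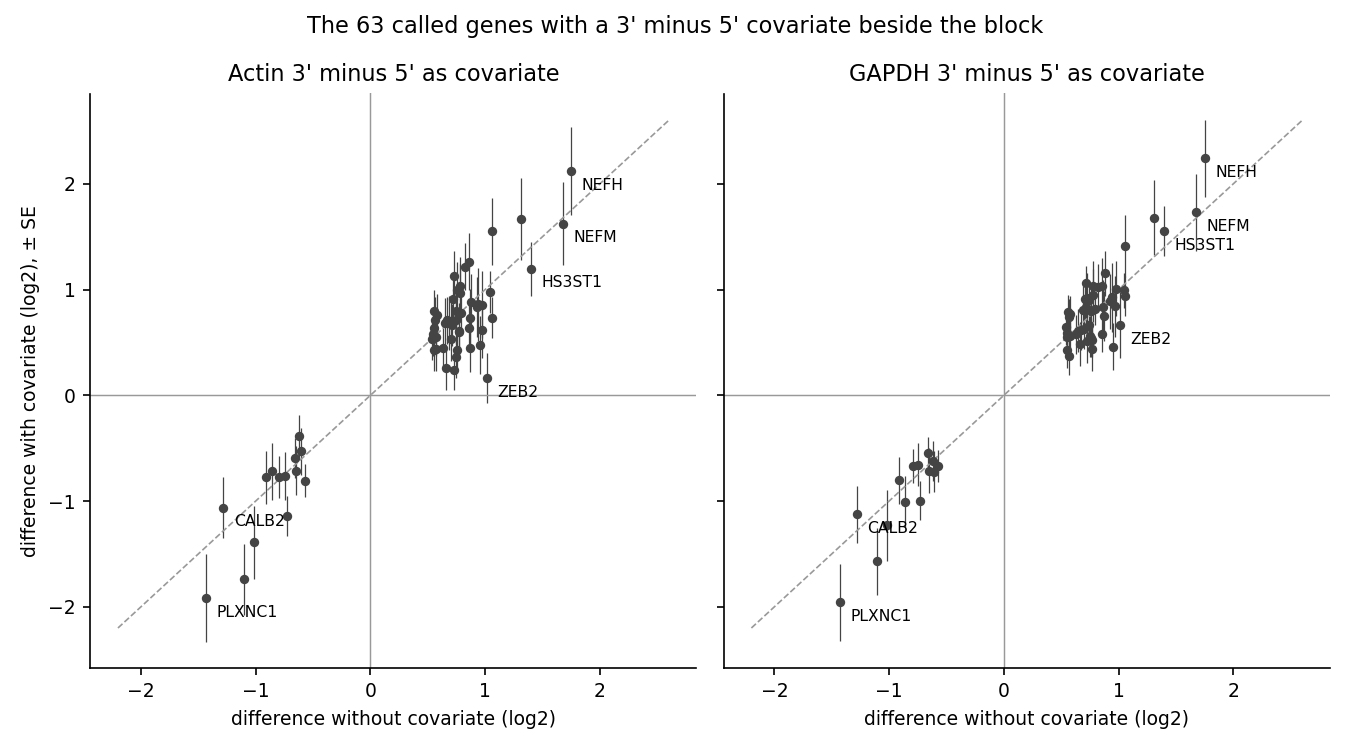
For the 63 called genes, the log2 difference of Ventral Thalamus from the other 4 nuclei is plotted without a covariate (horizontal) against that with the actin (left) or GAPDH (right) 3' minus 5' signal as a covariate (vertical), with bars of 1 SE and a dashed line of equality. All points keep their sign, and ZEB2 falls from the line the most with actin, at 0.17.

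The list medians under the covariates were compared in the same way. The respiratory chain median was 0.33 without a covariate, 0.38 with actin and 0.34 with GAPDH. The myelin median was 0.41, 0.29 and 0.33 in the same order, and the relay median 0.56, 0.80 and 0.74. The ribosomal median was 0.11 without a covariate, -0.11 with actin and near 0 with GAPDH, so its sign did not hold. The called higher genes also leaned towards the genes that were higher in replicate 2: 43 of the 49 were higher in replicate 2 than in replicate 1 on the 8 other arrays, with a median shift of 0.54, against 44.8% of all genes with a median of -0.04. For the 14 lower genes this count was 8, with a median shift of 0.01. On the same 8 arrays both control signals were higher in replicate 2, and the part of this shared shift in the differences was not tested.

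Other probe sets of the same genes were the remaining check. Of the 63 called genes 29 had further probe sets, 44 in all, of which 31 had the same sign as the chosen one and 13 the opposite sign. Of the 31, 16 had an unadjusted p under 0.05 and 8 differed by at least 50% of the chosen probe set's difference on the log2 scale. Of the 13, 0 had an unadjusted p under 0.05. All 3 further neurofilament probe sets had the same sign with an unadjusted p under 0.05.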

How the data were processed

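Total RNA of 10 thalamic micro-punches was read on a human-design Affymetrix array. The deposited values are probe set intensity on a linear scale; RMA is named in the submitters' processing notes, and its version and whether both replicate sets were normalised together are not given in the sources used here. The smallest deposited value was between 12.0 and 12.3 for each replicate 1 array but between 9.49 and 9.55 for each replicate 2 array, so the sets may have been normalised separately. Levels set across replicate numbers (counts above all 8 other arrays, shifts between replicates) are open to this. Of 22283 probe sets, 68 were controls and 19065 had 1 gene symbol in the platform annotation, 1043 had several and 2107 were not listed; the last 2 kinds were not named. For each of 11963 genes the probe set with the highest mean was used.

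Levels were log2(intensity + 1). limma 3.58.1 in R 4.3.3 (lmFit, eBayes with trend) fitted 5 nuclei with the replicate number as a block, since the comparison is defined within a number, with 4 residual degrees of freedom, and p-values were adjusted by Benjamini-Hochberg over all 11963 genes. Over the 10 pairs of nuclei, the differences between replicates correlated at 0.758 to 0.831, so arrays of the same number share a shift. This does not show that they come from the same animals, and XIST shows that replicate 1 is not 1 uniform set. Python 3.11.15 with matplotlib 3.10.9 drew the plots. The fitting procedure was tested on simulated data with independent noise around the replicate means. Those data held no split by XIST and no 3' minus 5' signal, so the test does not bear on either.

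Named genes were the 25 largest differences among genes called higher, all genes called lower (up to 20), every called member and the 4 largest differences of each of 36 lists, and a fixed set of marker and control genes. The members and lists were chosen with earlier results of these arrays known. The alternatives were no block, a block split by XIST, each control signal as a covariate, quantile normalisation, pseudocounts of 0 and 16, a filter at a mean log2 level of 7, the mean of all probe sets of a gene, no trend, and each nucleus or array left out; testing each probe set alone was added after the data were seen.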

Additional observations from a re-analysis of the deposited data

How the results depend on the processing

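limma called 63 genes in the fit reported. Over all genes it called 0 without the replicate block and 95 with the block split at an XIST level of 8 (57 of them among the 63). It called 8 with the actin covariate (0), 1 with the GAPDH covariate (0) and 28 after quantile normalisation (27). With the mean of all probe sets of a gene it called 17 (16), without Centre Median 24 (23) and without Pulvinar 108 (60). Leaving out 1 array gave 0 to 106 calls: 0 without Ventral Thalamus replicate 2 (770 at an unadjusted p under 0.05), 29 without Ventral Thalamus replicate 1, 28 and 37 without Anterior Thalamus replicate 1 or 2, 27 and 17 without Centre Median replicate 1 or 2, and 101 and 106 without Medial Thalamus replicate 1 or 2. A lone Ventral Thalamus array is assumed to vary like the other nuclei. The 63 genes kept their sign in each of these fits in which they were tested. The fit without the block and those with 1 Ventral Thalamus array left could not change it, as given above. The GAPDH 3' minus 5' difference was 0.30 after quantile normalisation and no longer passed its threshold. The cause of these changes was not tested, except that fewer residual degrees of freedom remain with a covariate or without an array. Of 3684 alternative values of the 155 named genes, 3161 kept direction and call, 421 lost the call, 53 gained it and 49 changed sign, in genes that were not called.

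With the actin covariate the sign changed for CACNB2 (0.16), GABRA3 (0.25), GABBR1 (-0.15), RPS25 (-0.11), RPS7 (-0.12), RPS19 (-0.11), VCAN (-0.0028), SLC2A1 (-0.11), IGFBP2 (-0.27), ARPP21 (0.25), TCF7L2 (-0.21) and ACTB (-0.073), and with GAPDH for MAP2 (0.019), GABRA3 (0.011), GABBR1 (-0.16), SYP (-0.20), ARPP21 (0.17) and TCF7L2 (-0.13). It changed after quantile normalisation for CSPG5 (-4.2e-05), TCF7L2 (-0.0065), ACTB (-0.036) and GAPDH (-0.0085), and with the mean of all probe sets for GRM8 (-0.061), PDE10A (-0.038), CAMK2A (-0.023) and DUSP1 (-0.045). CALB1 was -0.48 with the split block and -0.13 without Centre Median, and without Medial Thalamus NR4A2 was 0.058, KCNIP1 0.030 and TCF7L2 -0.0040. With each array left out in turn, the difference ranged from -0.33 to 0.44 for CALB1, -0.60 to 0.20 for NR4A2, -0.27 to 0.037 for ARPP21, -0.017 to 0.32 for CAMK2A, -0.081 to 0.25 for TCF7L2, -3.61 to 0.39 for NTS, -0.19 to 1.18 for PCDH8, -0.55 to 0.061 for OGN, -0.35 to 0.066 for TBR1, -0.13 to 0.36 for EMX1, -0.018 to 0.44 for DUSP1, -0.12 to 0.013 for SLC17A7 and -0.032 to 0.10 for ACTB.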

Other observations

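Among the 22215 probe sets that are not controls, each tested on its own with limma, 74 were called, 57 of them higher in Ventral Thalamus. Of the 2107 that the platform annotation used here does not list, 4 were called, 3 of them higher. One of the 3 lay at 10.43 and 10.49 in Ventral Thalamus against 8.68 to 9.76 in the other nuclei, a difference of 1.30 (adjusted p = 0.0068), and the 1 called lower lay at 6.77 and 6.14 against 6.997 to 8.23, a difference of -1.06 (adjusted p = 0.0316). Of the 1043 probe sets with several genes, 4 were called.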
